A study of Mus musculus with 10 samples.

Results

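The genes of the proteasome were examined in the mouse adrenal gland, on arrays of Crem knock-out (KO) and wild-type (WT) mice. Genes were taken when their symbol began with Psma to Psmg followed by a number, when an array probe was paired with that gene alone, and when they were not pseudogenes. Of 47 such symbols, Psmc3ip and Psme3ip1 encode proteins that interact with a subunit and were set apart, which left 45 of the 19661 genes measured. Psma3, Psma4 and Psmd11 were not analysed here. Each of the 45 genes had 1 measured probe, so every level below belongs to a single probe set. The 45 genes were 5 alpha and 7 beta genes of the 20S core, 5 immune subunits, 1 testis and 1 thymus core subunit, 6 ATPases and 10 other subunits of the 19S regulator, 3 chaperones of 19S assembly, 4 chaperones of 20S assembly, and 3 other activators or inhibitors.

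The study asked how the loss of Crem, the cAMP responsive element modulator, affects gene expression in adrenal glands. Whole adrenal RNA of 5 KO mice (Crem-/-) and 5 WT mice was measured, 1 array per animal. Both groups were 8 weeks old, untreated, of a mixed background (129Pas x C57Bl/J), and sacrificed at 0 h of circadian time, and their sex was not given in the labels used here. The knock-out is constitutive, so that all cells of the gland and of the body lack an intact Crem gene, and the tissue was the whole organ with cortex and medulla together.

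The proteasome is the protease that removes ubiquitin-tagged proteins from the cytosol and nucleus. Its 20S core is a barrel of stacked rings, in which alpha subunits form the gate and beta subunits carry the active sites, and the 19S regulator recognises, unfolds and feeds in the substrate. In cells exposed to interferon and in immune cells, the 3 catalytic beta subunits are exchanged for immune forms that favour the cutting of peptides for class I antigen presentation, and in the germ line an alpha subunit is exchanged for a testis form.

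Each level is an RMA value in log2 units, so a difference of 1 is a doubling of signal, and differences were taken as KO minus WT by genotype label. The arrays had medians of 7.17 to 7.25 and correlated pairwise with a Pearson r of 0.908 to 0.992 across all probes. With 5 arrays per genotype, their number sets the precision. According to the labels there were 4 batches: KO 1, KO 2 and WT 1 were in batch 1, KO 3 and KO 4 in batch 2, KO 5, WT 2, WT 3 and WT 4 in batch 3, and WT 5 in batch 4. What a batch stands for was not given in the labels. Only batches 1 and 3 hold both genotypes. The first principal component set KO 2, KO 5 and WT 3 (scores 0.43 to 0.49) apart from the other 7 arrays (-0.38 to 0.12), and the second set KO 1 apart (0.84 against -0.29 to 0.13).

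The mean level of 10 adrenal cortex markers was 12.42 on KO 1, 12.33 on KO 3 and 12.80 to 13.01 on the other 8 arrays. All 10 were lower in KO, with 1 (Nr5a1, -0.47) at an unadjusted p under 0.05 by limma and none after adjustment. That of 9 measured chromaffin cell markers of the medulla lay between 10.60 and 11.59, except on KO 1, where it was 8.08. Liver markers (6 measured) averaged 13.33 on KO 1 and 6.61 to 9.29 on the other arrays, and adipocyte markers (10 measured) averaged 12.58 on KO 1, 12.40 on KO 3 and 8.19 to 10.71 on the others. Their part in the differences below was not tested beyond leaving these arrays out. In RNA of a whole organ, fewer cells of a type and less RNA per cell cannot be told apart.

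Crem itself was measured first. Its levels were 7.38, 7.97, 6.86, 6.84 and 7.77 on KO 1 to KO 5 and 7.45, 7.23, 8.14, 7.62 and 7.27 on WT 1 to WT 5, with a difference of -0.18 (standard error 0.26, limma adjusted p = 0.999). The groups overlapped, and the 3 highest arrays were WT 3, KO 2 and KO 5. No source used here says where the probe lies relative to the disrupted part of the gene, so these values do not check the genotype labels.

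The main comparison asks whether any proteasome gene differed between KO and WT adrenals. None of the 45 passed the limma test at an adjusted p of 0.05, and none of the 25664 probes did (0.0%, smallest adjusted p 0.999). At an unadjusted p under 0.05, 1 of the 45 genes was past the threshold (2.22%, against 3.42% of all probes, or 878 probes). It was Psma8, the testis core subunit, which was higher in KO (1 gene higher, against 0.923% of all probes, and 0 lower, against 2.5%). No overlap between KO and WT arrays was found for 1 of 45 genes, again Psma8, against 141 of all 19661 genes (0.717%). Differences ranged from -0.26 (Psmd6) to 0.48 (Psme4). They were below 0 for 34 genes and above 0 for 11, and their median was -0.09, beside -0.01 for all genes, of which 53.2% were below 0. Genes of 1 complex are not independent of each other, and these shares are descriptions of 10 arrays.

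**Figure D1:**
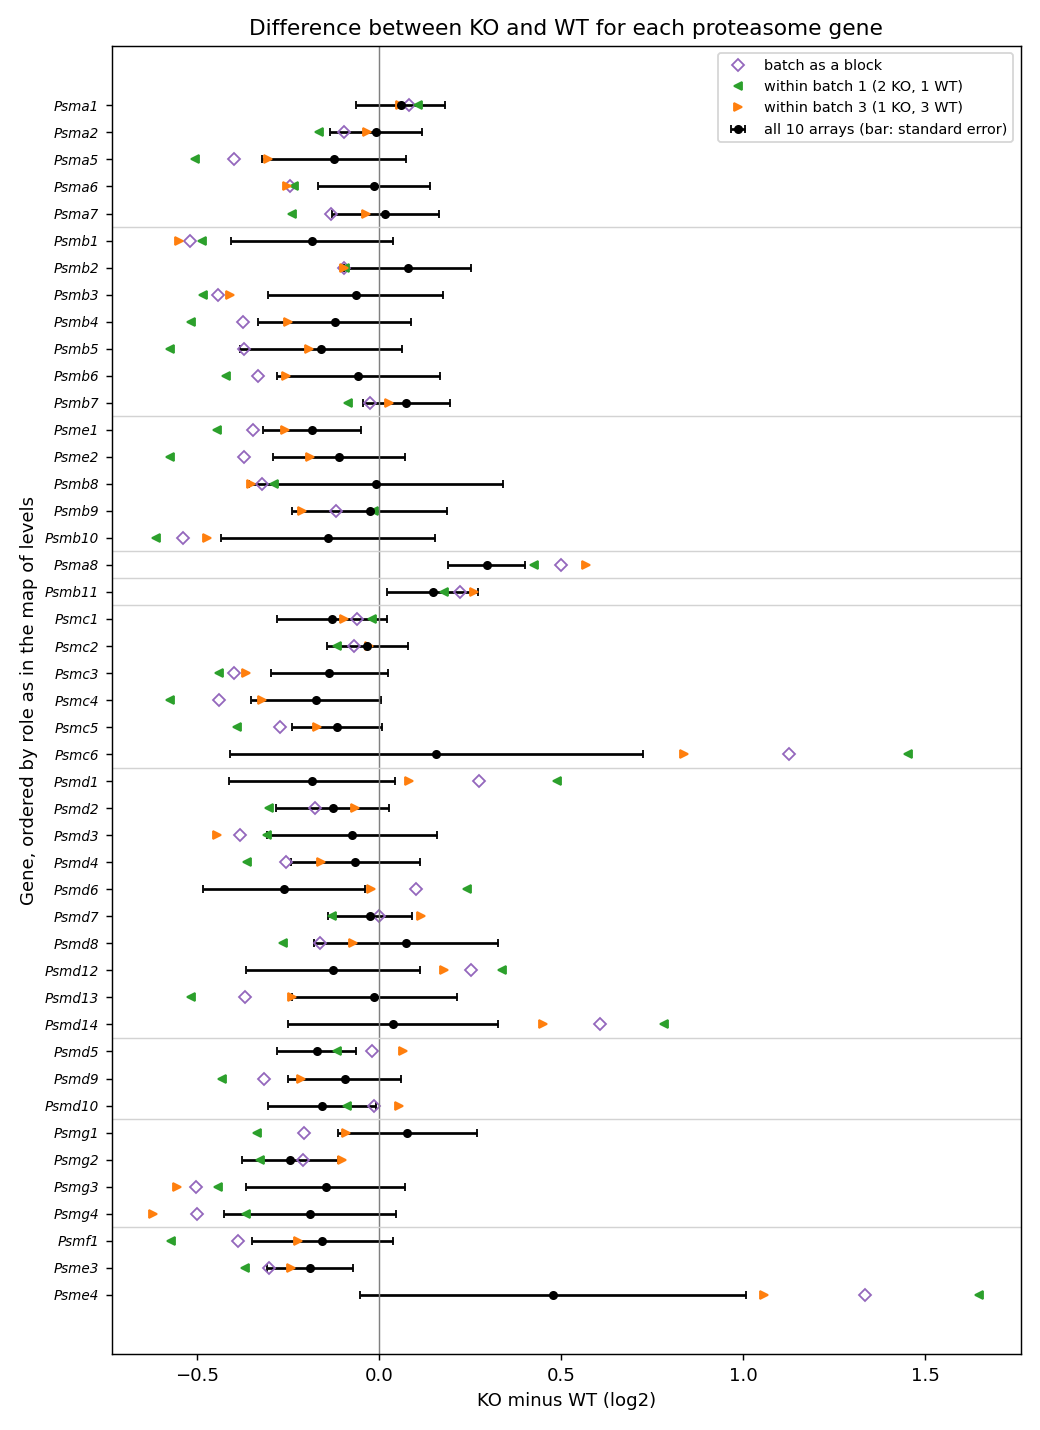
Difference between KO and WT (x axis, log2) for each of the 45 proteasome genes (y axis, ordered by role): black points show the estimate over 10 arrays with its standard error, open diamonds the fit with batch as a block, and triangles the estimates within batches 1 and 3. Most points lie left of 0, with a median of -0.09 over all arrays, and Psmc6 and Psme4 move furthest to the right with batch as a block (1.13 and 1.34).

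The direction was also taken within batches, because the batches are spread unequally over the genotypes. With batch as a fixed block, a fit in which batches 2 and 4 add nothing to the contrast, 35 of 45 genes were lower in KO, with a median of -0.21 beside -0.06 for all genes. The median was -0.30 within batch 1 (2 KO, 1 WT) and -0.16 within batch 3 (1 KO, 3 WT), beside -0.06 and -0.07 for all genes. In the blocked fit 2 genes were higher (Psma8 and Psme4) and 5 lower (Psmb1, Psmc3, Psmc4, Psme1 and Psmg3) at an unadjusted p under 0.05, against 1.8% and 5.38% of all probes (7.18% in both directions). None of them passed after adjustment (smallest adjusted p of these 7 genes 0.582). Of the arrays that stood apart, KO 2 entered the contrast within batch 1, and KO 5 and WT 3 entered that within batch 3 on opposite sides. Without KO 2, KO 5 and WT 3, the median over the 45 genes was -0.02, beside 0.01 for all genes. In that fit 27 of the 45 were lower (60%), beside 47.7% of all genes.

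The larger part of the variation lay between arrays of the same genotype. KO 2, KO 5 and WT 3 were the 3 lowest arrays for 20 of 45 proteasome genes (44.4%), against 18.1% of all genes. They were the 3 highest arrays for 4 proteasome genes (8.89%), against 12.2% of all genes. The 20 genes were Psma5, Psmb3, Psmb4, Psmb5 and Psmb6 of the core, the immune subunits Psmb8, Psmb9, Psmb10 and Psme2, Psmc3, Psmc4, Psmd2, Psmd3, Psmd4, Psmd9 and Psmd13 of the 19S side, the chaperones Psmg3 and Psmg4, and Psme3 and Psmf1. The 4 genes with the opposite order were Psmb11, Psmc6, Psmd14 and Psme4. These arrays were singled out on the same data, and their numbers are a description with no test. The 3 arrays hold both genotypes and 2 batches.

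**Figure D2:**
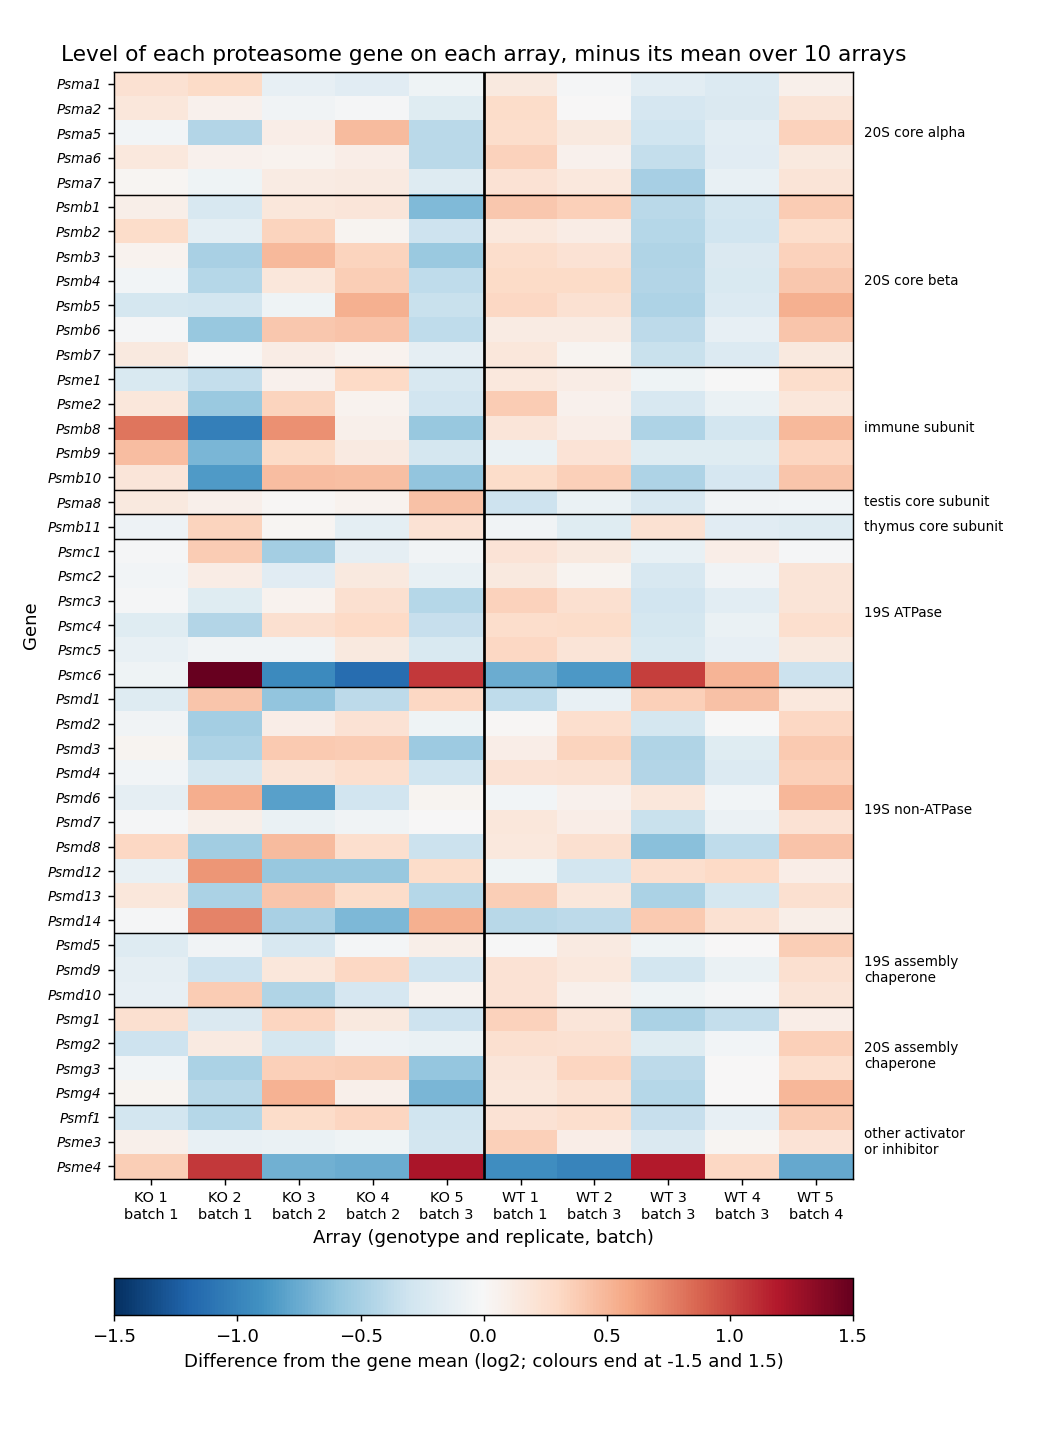
Map of the 45 proteasome genes (rows, by role) on the 10 arrays (columns, with genotype and batch), coloured by the level minus the gene's mean over all arrays (log2). Columns KO 2, KO 5 and WT 3 are blue for most beta and immune genes and for other genes among the 20 in which they are the 3 lowest arrays, and red for Psmc6, Psmd14 and Psme4.

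Among the genes of the 20S core, 4 of 12 were higher in KO and 8 lower, and their differences lay between -0.18 and 0.08 with a median of -0.04. In the blocked fit 11 of the 12 were lower, with a median of -0.29, and all 7 beta genes were (median -0.37). The 3 constitutive catalytic subunits are Psmb6, with caspase-like activity, Psmb7, with trypsin-like activity, and Psmb5, with chymotrypsin-like activity. Psmb5 had levels of 11.06, 11.04, 11.26, 11.85 and 10.98 in KO and 11.62, 11.55, 10.85, 11.11 and 11.85 in WT, a difference of -0.16 (standard error 0.22). Psmb6 had levels of 11.62, 11.06, 12.03, 12.07 and 11.25 in KO and 11.76, 11.76, 11.25, 11.51 and 12.05 in WT, a difference of -0.06 (standard error 0.22), or -0.33 with batch as a block. For both genes the groups overlapped over most of their range, with KO 4 and WT 5 at the top and KO 2, KO 5 and WT 3 at the bottom.

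Psmb7 varied less, with levels of 11.92, 11.79, 11.88, 11.82 and 11.63 in KO and 11.94, 11.81, 11.43, 11.57 and 11.92 in WT, and a difference of 0.08 (standard error 0.12). Its lowest array was WT 3. The pooled SD within genotype was 0.38 for Psmb5 and Psmb6 and 0.18 for Psmb7, beside a median of 0.30 over the proteasome genes and 0.26 over all genes. The other beta subunits Psmb1, Psmb2, Psmb3 and Psmb4 have no catalytic site, and their differences lay between -0.18 (Psmb1) and 0.08 (Psmb2).

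The alpha subunits form the outer rings and the gate of the barrel. Psma7 had levels of 10.75, 10.67, 10.85, 10.86 and 10.54 in KO and 10.95, 10.88, 10.23, 10.61 and 10.92 in WT, a difference of 0.02 (standard error 0.15) whose sign changed with batch as a block (-0.13). WT 3 was again the lowest array and the groups overlapped. The differences of Psma1, Psma2, Psma5 and Psma6 were 0.06, -0.01, -0.12 and -0.01, with standard errors of 0.12 to 0.20.

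Psma8 is the alpha subunit that takes the place of Psma7 in male germ cells. Its levels were 6.39, 6.31, 6.26, 6.29 and 6.67 in KO and 5.92, 6.14, 6.0, 6.18 and 6.19 in WT. Every KO array lay above every WT array, with the lowest KO array (KO 3, 6.26) close to the highest WT array (WT 5, 6.19), and the highest level was that of KO 5. The KO arrays averaged 6.38 ± 0.17 (SD, n = 5), and the average of the WT arrays was 6.09 ± 0.12 (SD, n = 5). The difference of 0.30 (standard error 0.11) had a limma unadjusted p of 0.018 and an adjusted p of 0.999, and so did not pass. It was 0.50 with batch as a block (limma adjusted p = 0.582), 0.43 within batch 1, 0.57 within batch 3 and 0.20 without KO 2, KO 5 and WT 3. Of all 19661 genes, 43 had every KO array above every WT array (0.219%) and 98 had every KO array below (0.498%).

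RMA values carry no detection call, so whether the Psma8 probe reports a transcript in this tissue is not known from these data. The mean of 8 germ cell markers lay between 5.67 and 5.97 in KO and between 5.65 and 5.82 in WT, with KO 3 and KO 1 highest, and its part in the Psma8 difference was not tested. In the RefSeq table of assembly GRCm38.p6, Psma8 lies on the same chromosome as Crem, and whether this bears on the Psma8 difference was not tested. Psmb11, the core subunit of the thymic cortical epithelium, had levels of 6.47, 6.88, 6.58, 6.40 and 6.76 in KO and 6.50, 6.36, 6.77, 6.37 and 6.35 in WT. Its 3 highest arrays were KO 2, WT 3 and KO 5, the groups overlapped, and the difference was 0.15 (standard error 0.13).

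**Figure D3:**
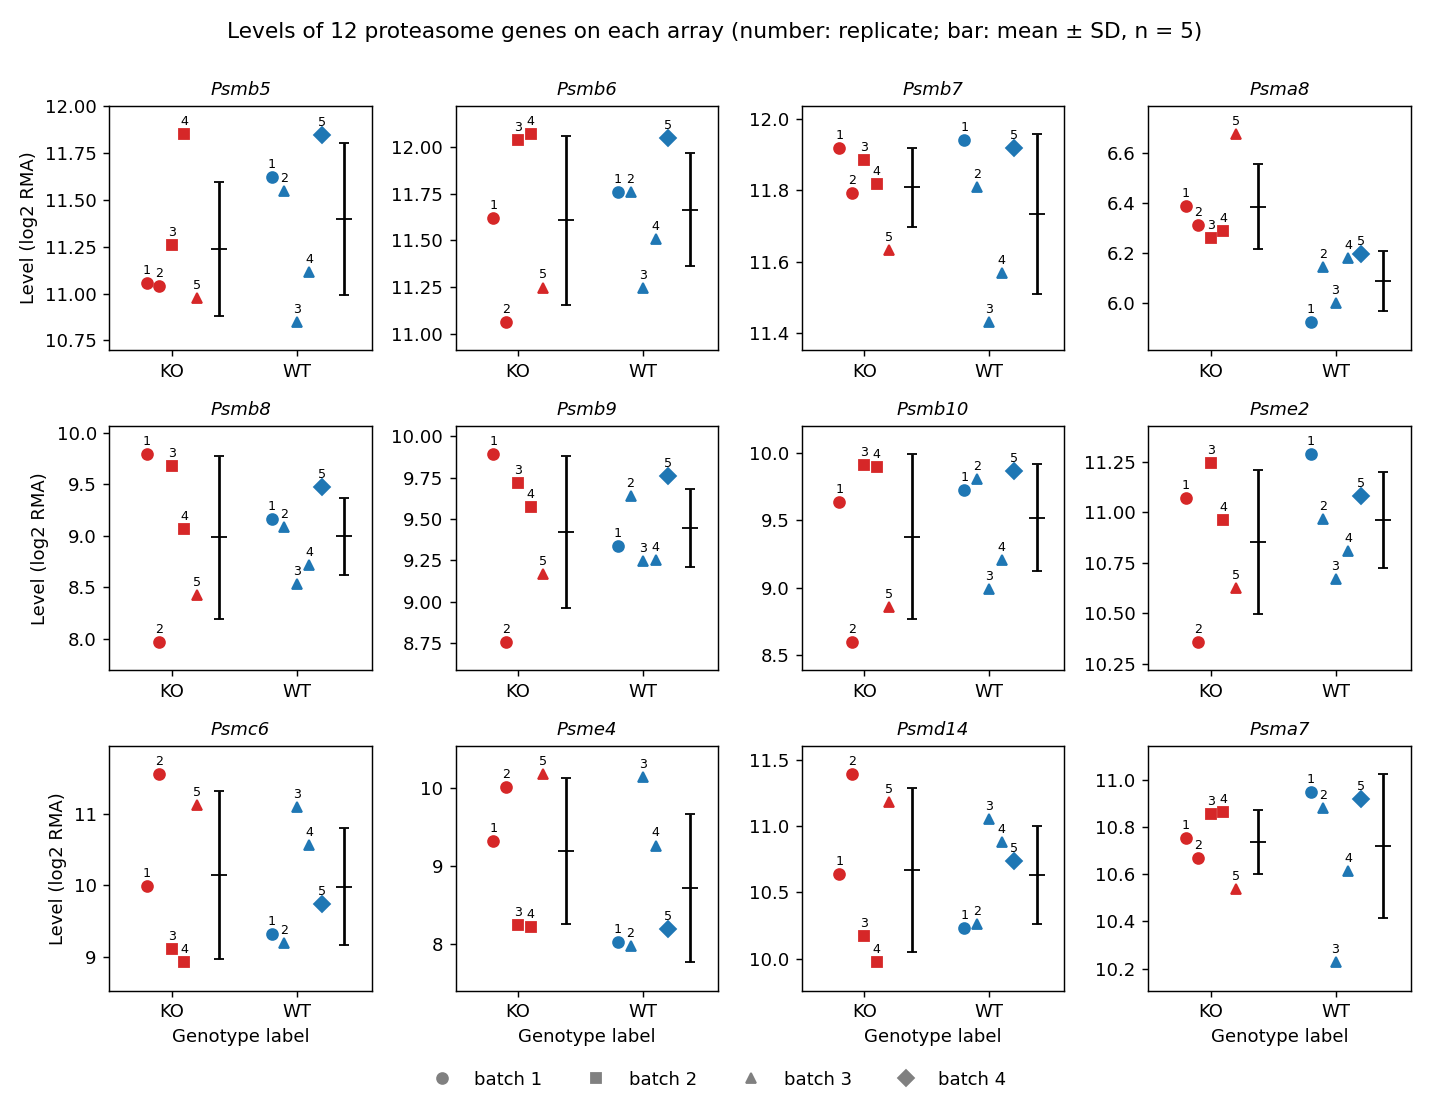
Levels (y axis, log2 RMA, each panel with its own range) of 12 proteasome genes on the KO and WT arrays, with the replicate number at each point, symbols for the batch, and bars for the mean ± SD (n = 5). The groups overlap in all panels but that of Psma8 (KO 6.26 to 6.67, WT 5.92 to 6.19), and KO 2, KO 5 and WT 3 sit at the bottom of the panels of Psmb8 and Psmb10 and at the top of those of Psmc6 and Psme4.

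The immune subunits differed widely between KO arrays. All 5 were lowest on KO 2, the array on which 11 of the 45 proteasome genes and 21.8% of all genes were lowest. Psmb8, the immune form that replaces Psmb5, had levels of 9.79, 7.97, 9.68, 9.06 and 8.42 in KO and 9.17, 9.08, 8.53, 8.71 and 9.47 in WT. The KO arrays spanned both ends of the range, from 7.97 on KO 2 to 9.79 on KO 1, both of batch 1. The difference was -0.01 (standard error 0.35), smaller than the spread between mice (SD 0.79 in KO, 0.38 in WT), and its sign turned on the arrays left out. It was 0.40 without KO 2, KO 5 and WT 3, -0.51 without KO 1 and KO 3, and -0.32 with batch as a block.

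Psmb9, which replaces Psmb6, had levels of 9.89, 8.75, 9.72, 9.57 and 9.17 in KO and 9.34, 9.64, 9.25, 9.25 and 9.76 in WT, a difference of -0.03 (standard error 0.21). Psmb10, which replaces Psmb7, had levels of 9.63, 8.59, 9.92, 9.89 and 8.86 in KO and 9.73, 9.81, 8.99, 9.20 and 9.87 in WT, a difference of -0.14 (standard error 0.29). In both genes KO 2 was lowest, a KO array was highest and the WT arrays lay between them. Without KO 2, KO 5 and WT 3 both differences turned positive (0.23 for Psmb9 and 0.16 for Psmb10), and without KO 1 and KO 3 they were -0.28 and -0.40. The blocked fit gave -0.12 and -0.54.

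Psme1 and Psme2 encode the 2 chains of the interferon-inducible activator PA28, a ring that opens the core without the 19S regulator. Psme1 had levels of 11.44, 11.31, 11.73, 11.96 and 11.42 in KO and 11.82, 11.78, 11.60, 11.65 and 11.92 in WT, a difference of -0.18 (standard error 0.14). Psme2 had levels of 11.07, 10.36, 11.24, 10.96 and 10.62 in KO and 11.29, 10.97, 10.67, 10.81 and 11.08 in WT, a difference of -0.11 (standard error 0.18). Groups overlapped in both genes, and the lowest KO arrays lay below all WT arrays. With batch as a block the difference of Psme1 was -0.35 (limma unadjusted p = 0.028, adjusted p = 0.582). Psme2 has copies elsewhere in the mouse genome, and no source used here says whether the probe separates them.

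To set each immune subunit beside the one it replaces, the level of each gene minus its own mean over 10 arrays was used. Psmb8 against Psmb5 ranged from -0.75 (KO 2) to 1.06 (KO 1) in KO and from -0.14 to 0.01 in WT. It was 0.75 on KO 3, -0.46 on KO 4 and -0.23 on KO 5. Its SD was 0.79 in KO and 0.06 in WT. KO 1 and KO 3 were also the arrays with the highest adipocyte marker levels (12.58 and 12.40), whose part in this spread was not tested. Psmb9 against Psmb6 ranged from -0.30 (KO 4) to 0.48 (KO 1), and Psmb10 against Psmb7 from -0.88 (KO 2) to 0.40 (KO 4). The mean differences between KO and WT of these contrasts were 0.15, 0.03 and -0.21, each below the SD of the KO arrays (0.79, 0.30 and 0.55). Without KO 2, KO 5 and WT 3 they were 0.55, 0.09 and 0.10. For Psma8 against Psma7 the contrast was 0.28 higher in KO, with SDs of 0.30 in KO and 0.31 in WT, and the groups overlapped.

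Leukocytes express the immune subunits, and 12 leukocyte markers were measured. Their mean was 8.64, 7.95, 8.46, 8.41 and 8.12 on KO 1 to KO 5 and 8.32, 8.61, 8.09, 8.19 and 8.48 on WT 1 to WT 5. It was lowest on KO 2, WT 3 and KO 5, which were the 3 lowest arrays for 5 of the 12 markers and for 4 of the 5 immune subunits. The part of leukocytes in the immune subunit levels was not tested. Of 8 measured genes of class I presentation and interferon response, 3 were higher and 5 lower in KO, with a median of -0.06. None was past an unadjusted p of 0.05 by limma. Their mean level stayed between 9.38 and 9.62 on all arrays, but single genes varied more and in opposite orders. KO 2, KO 5 and WT 3 were the 3 lowest arrays for 2 of the 8 and the 3 highest for 2. Tapbp ranged from 9.82 (KO 2) to 11.55 (KO 3), and Ifit1 from 6.39 (WT 1) to 9.57 (KO 2).

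In the 19S regulator the ATPases form the ring that unfolds the substrate. Of 6 ATPase genes 5 were lower in KO, with a median of -0.12, and Psmc6 was higher. Psmc6 had the widest spread of all proteasome genes, with levels of 9.99, 11.56, 9.11, 8.92 and 11.13 in KO and 9.32, 9.20, 11.10, 10.57 and 9.74 in WT. The arrays fell into a high set (KO 2, KO 5, WT 3 and WT 4, from 10.57 to 11.56) and a low set (from 8.92 to 9.99), with both genotypes in each. The difference was 0.16 (standard error 0.57), it was 1.13 with batch as a block and -0.36 without KO 2, KO 5 and WT 3, and its SD within genotype of 1.01 was larger than that of 96.9% of all genes. The other 5 ATPases had SDs of 0.16 to 0.30.

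Of the 10 non-ATPase genes of the 19S regulator, which include the ubiquitin receptor Psmd4 and the deubiquitinase Psmd14, 2 were higher and 8 lower, with a median of -0.07. Psmd14 had levels of 10.64, 11.39, 10.17, 9.97 and 11.18 in KO and 10.23, 10.26, 11.05, 10.88 and 10.74 in WT, a difference of 0.04 (standard error 0.29). It shared its 3 highest arrays with Psmc6. The scaffold gene Psmd2 and Psmd4 had the opposite order, with KO 2, KO 5 and WT 3 lowest, and differences of -0.13 and -0.06 (standard errors 0.16 and 0.18). The subunits of 1 regulator thus did not share 1 order of arrays.

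Without KO 2, KO 5 and WT 3, 5 proteasome genes were lower in KO at an unadjusted p under 0.05, against 7.3% of all probes in that direction (12.2% in both). They were Psmc1 (-0.33), Psmd6 (-0.53), Psmd12 (-0.43), the 19S assembly chaperone Psmd10 (-0.39) and the 20S assembly chaperone Psmg2 (-0.42). In the same order, the fit with the batch block gave -0.06, 0.10, 0.25, -0.01 and -0.21, so that Psmd6 and Psmd12 changed sign. Without KO 1 and KO 3, Psmd6 was -0.03 and Psmd10 -0.02. None was higher, against 4.88% of all probes. None passed after adjustment (limma adjusted p from 0.361 to 0.402). All 6 ATPases and 7 of the 10 non-ATPase genes were lower in this fit of 3 KO and 4 WT arrays, while 4 of the 5 immune subunits were higher.

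The chaperones of assembly are not part of the finished particle. Psmd5, which holds an ATPase module before the 19S base is complete, had levels of 9.78, 9.91, 9.74, 9.94 and 10.06 in KO and 9.96, 10.11, 9.90, 9.97 and 10.34 in WT, a difference of -0.17 (standard error 0.11). Psmg2, part of a pair with Psmg1 that starts the alpha ring, had levels of 8.71, 9.16, 8.76, 8.94 and 8.92 in KO and 9.26, 9.25, 8.84, 8.98 and 9.38 in WT, a difference of -0.24 (standard error 0.13, limma unadjusted p = 0.090, adjusted p = 0.999). In both genes KO 1 and KO 3 were the lowest arrays and WT 5 the highest, and the groups overlapped. KO 1 and KO 3 were also the arrays with the highest adipocyte and lowest cortex marker levels, and without them the differences were -0.09 for Psmd5 and -0.14 for Psmg2. Psmg1, Psmg3 and Psmg4 had differences of 0.08, -0.15 and -0.19.

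The remaining 3 genes encode PA28-gamma, a nuclear activator (Psme3), PA200, a nuclear activator linked to histone turnover (Psme4), and PI31, a regulator named for inhibition of the core in vitro (Psmf1). Psme3 had levels of 10.55, 10.37, 10.37, 10.41 and 10.20 in KO and 10.83, 10.58, 10.26, 10.50 and 10.68 in WT, a difference of -0.19 (standard error 0.12). Psme4 had levels of 9.32, 10.01, 8.24, 8.21 and 10.18 in KO and 8.02, 7.97, 10.14, 9.26 and 8.19 in WT, a difference of 0.48 (standard error 0.53). KO 5, WT 3 and KO 2 lay between 10.01 and 10.18, and WT 1, WT 2, WT 5, KO 3 and KO 4 between 7.97 and 8.24, so that each genotype spanned the range. With batch as a block the difference of Psme4 was 1.34 (limma unadjusted p = 0.035, adjusted p = 0.582), with 1.65 within batch 1 and 1.06 within batch 3, and without KO 2, KO 5 and WT 3 it was 0.23. Its SD within genotype of 0.95 was larger than that of 96.1% of all genes. Psmf1 differed by -0.16 (standard error 0.19).

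**Figure D4:**
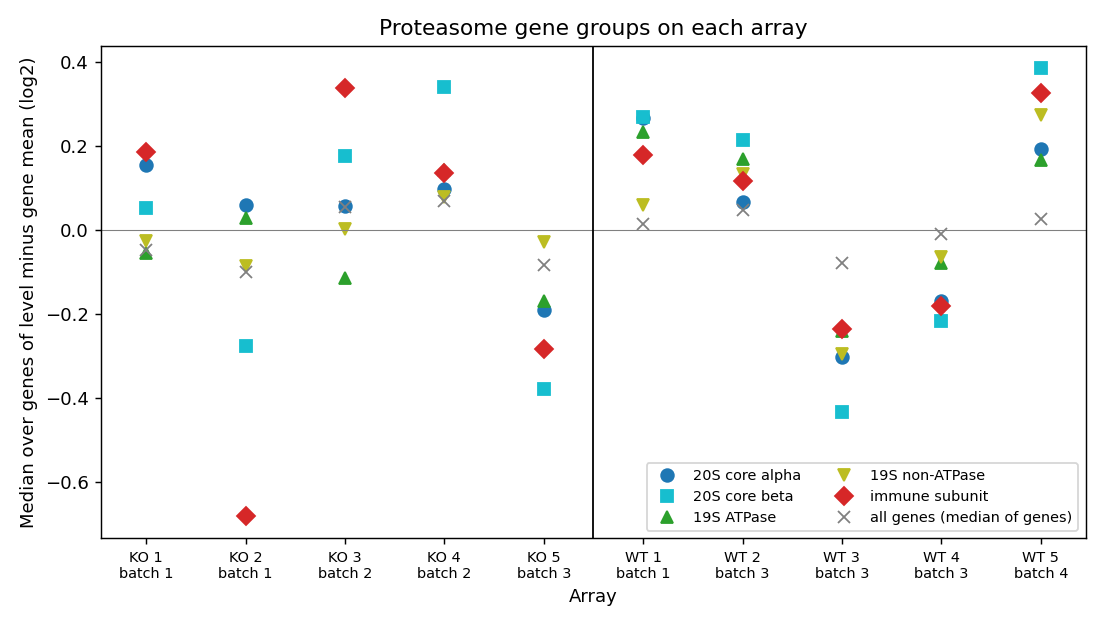
Median over the genes of a group of the level minus the gene's mean over all arrays (y axis, log2), for the main groups of proteasome genes and all genes on each array (x axis, with batch). Beta subunits are lowest on WT 3, KO 5 and KO 2 (-0.43, -0.38 and -0.28), immune subunits are lowest on KO 2 (-0.68), and the crosses for all genes stay between -0.10 and 0.07.

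By array, the median of the beta subunits relative to their own means was 0.05, -0.28, 0.18, 0.34 and -0.38 on KO 1 to KO 5 and 0.27, 0.21, -0.43, -0.22 and 0.38 on WT 1 to WT 5. That of the immune subunits was 0.19, -0.68, 0.34, 0.14 and -0.28 in KO and 0.18, 0.12, -0.24, -0.18 and 0.33 in WT. The 2 groups had the same 4 arrays below 0 (KO 2, KO 5, WT 3 and WT 4). The median over all genes was also below 0 on these arrays (-0.10, -0.08, -0.08 and -0.01), and on KO 1 (-0.05). The 19S ATPases spanned less, from -0.24 on WT 3 to 0.23 on WT 1.

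Genes of the same pathway whose names do not begin with Psm were read beside the subunits. Of 5 measured genes for further subunits and chaperones, 1 was higher and 4 lower in KO, with a median of -0.05. The deubiquitinase Usp14 differed by -0.24 (standard error 0.32) and Pomp, which completes core assembly, by -0.05 (standard error 0.10). Usp14, Ecpas and Uchl5, named after their values were seen, had their 3 highest levels on KO 2, KO 5 and WT 3, as Psmc6 and Psme4 did. This order was found for 12.2% of all genes. Sem1, of the same list, had its 3 lowest levels on these arrays (10.47, 10.32 and 10.22), an order found for 18.1% of all genes. Of 7 measured genes listed around proteasome transcription, 6 were lower (Nfe2l1, Nfe2l2, Nploc4, Ufd1, Akirin2 and Keap1) and Ngly1 was higher (0.15). Their median was -0.13, and -0.07 with batch as a block. Nfe2l1, a transcription factor that induces subunit genes when the proteasome is impaired, differed by -0.18 (standard error 0.09). Nfe2l2, the factor of the oxidative stress response, differed by -0.25 (standard error 0.19). Of 5 genes for shuttle factors and related proteins 4 were lower, with Ubqln2 at -0.20 (standard error 0.26) and Rad23b at -0.10 (standard error 0.11). No gene of these lists was past an unadjusted p of 0.05 by limma, and none passed after adjustment.

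Crem protein binds the cAMP response element, whose palindrome is TGACGTCA and whose shorter form is TGACG, and Nfe2l1 and Nfe2l2 bind elements of the form TGACNNNGC. RefSeq promoter sequences of GRCm38.p6, from 250 bases before to 50 bases after each gene's start, were matched for 37 of the 45 genes and searched on both strands. TGACG was found for 19 of 37 genes (51.4%), against 23.0% of 27025 genes with a promoter. TGACGTCA was found for 0 of 37, against 2.03%. TGACNNNGC, which can overlap TGACG, was found for 6 of 37 (16.2%), against 14.0%, and CCAAT for 13 of 37 (35.1%), against 41.1%. These counts describe letters in a window, with no test, and the base composition of the promoters was not matched.

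The 250 bases before the start are printed for 3 genes, chosen after their levels were seen: Psmb6 and Psmc6, because KO 2, KO 5 and WT 3 were lowest for the former and highest for the latter, and Psmb9, as an immune subunit. They lie at chr11:70525107-70525356 (plus strand), chr14:45329574-45329823 (plus strand) and chr17:34187331-34187580 (minus strand). Each is written 5′ to 3′ on the strand of its gene, and capitals mark TGACG or TGACNNNGC on either strand.
Psmb6: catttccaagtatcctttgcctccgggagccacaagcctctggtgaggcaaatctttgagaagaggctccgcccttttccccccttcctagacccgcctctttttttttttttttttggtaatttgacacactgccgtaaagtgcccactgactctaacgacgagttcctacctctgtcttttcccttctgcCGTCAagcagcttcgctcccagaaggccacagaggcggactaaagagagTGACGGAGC
Psmc6: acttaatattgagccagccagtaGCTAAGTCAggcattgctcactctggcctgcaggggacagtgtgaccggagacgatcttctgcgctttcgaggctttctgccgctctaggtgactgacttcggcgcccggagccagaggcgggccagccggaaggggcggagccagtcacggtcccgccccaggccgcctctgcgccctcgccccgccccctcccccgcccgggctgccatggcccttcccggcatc
Psmb9: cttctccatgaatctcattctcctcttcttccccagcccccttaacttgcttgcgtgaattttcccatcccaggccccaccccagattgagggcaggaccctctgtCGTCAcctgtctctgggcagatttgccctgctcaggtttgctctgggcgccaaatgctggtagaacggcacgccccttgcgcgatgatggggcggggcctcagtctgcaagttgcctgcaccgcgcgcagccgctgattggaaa
The Psmb6 promoter holds TGACG on the minus strand from 58 bases before the start and on the plus strand from 9 bases before it, the latter within TGACNNNGC. The Psmc6 promoter holds TGACNNNGC on the minus strand from 227 bases before the start and no TGACG in this window. The Psmb9 promoter holds TGACG on the minus strand from 144 bases before the start. In the mouse genome Psmb9 is arranged head to head with Tap1, a chain of the peptide transporter of class I presentation. Tap1 had levels of 8.61, 8.11, 8.71, 8.68 and 8.37 in KO and 8.34, 9.0, 8.40, 8.32 and 8.88 in WT, a difference of -0.09 (standard error 0.18), and was lowest on KO 2 as Psmb9 was.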

How the data were processed

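Biotin-labelled adrenal RNA was measured on whole-transcript arrays (Affymetrix Mouse Gene). The deposited values are log2 levels per transcript cluster, which per the labels were made by the authors with RMA. RMA combines a background correction, quantile normalisation and a summary over probes, which evens out differences in overall signal between arrays. The software, its version and whether batches were adjusted for were not given in the sources used here. Of 35557 rows, 9868 held no value and 25 control probes were left out, which left 25664 probes (20777 with 1 symbol, 232 with several and 4655 with none). Of the gene symbols, those with an Entrez ID in RefSeq were looked up there (19584 of 19661 genes, 0 symbols changed).

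Genotypes were compared by a linear model without covariates, fitted to all probes with lmFit and eBayes of limma 3.58.1 (R 4.3.3), with two-sided p-values and a Benjamini-Hochberg adjustment over every probe analysed (threshold 0.05). Alternatives were batch as a fixed or random block, single batches, a median shift, repeated quantile normalisation, other moderation, array weights, filters on probes, the mean of a gene's probes, a threshold of 0.01, and leaving arrays out. Genes given on every array were the exchanged and immune subunits, Psma7, Psma8, the 4 smallest unadjusted p in each direction and the 3 largest SDs. Psmd14 and Tap1 were added after their values were seen. The members and lists were chosen with earlier results of these data known. The fit was tested on simulated data of 25664 probes for KO against WT, where 15.5%, 63.1% and 89.4% of changes of 0.5, 1 and 2 (log2) were recovered. The simulated probes vary independently, unlike the real ones. The labels number the animals, and p-values measure the spread between them. Figures were drawn with matplotlib 3.10.9.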

Additional observations from a re-analysis of the deposited data

How the results depend on the processing

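No probe and no proteasome gene passed an adjusted p of 0.05 under any alternative that was run. The median difference of the proteasome genes was below 0 in the 19 alternatives computed for it, with -0.30 within batch 1 (20S core -0.33) and -0.18 to -0.03 leaving out 1 array at a time, and that of the 20S core ranged from -0.13 to 0.05 and that of the immune subunits from -0.21 to 0.06 in the same fits. With batch as a fixed block the medians were -0.29 (20S core) and -0.35 (immune), and that of the immune subunits was -0.44 within batch 1, -0.31 without KO 1 and KO 3 and 0.16 without KO 2, KO 5 and WT 3. Psma8 kept its sign in the 19 alternatives computed for it (0.20 without KO 2, KO 5 and WT 3, and 0.22 to 0.33 leaving out 1 array at a time). Every KO array lay above every WT array for Psma8, so fits on a part of the arrays or within batches could not change its sign. Psmb5, Psme1, Psme3, Psme4, Psmb11 and Psmg2 also kept their sign in the 19 alternatives computed for each. Psmb6, Psmb7, Psmb8, Psmb9, Psmb10, Psme2, Psma7, Psmd5 and Psmc6 changed sign in some, and the cause was not tested. Without KO 2, KO 5 and WT 3, Psmb6 was 0.14, Psmb8 0.40, Psmb9 0.23, Psmb10 0.16, Psme2 0.058, Psma7 -0.016 and Psmc6 -0.36. Psma7 was -0.13 with batch as a fixed block, -0.030 as a random block, -0.24 within batch 1, -0.036 within batch 3, -0.0035 after a median shift and -0.028 without KO 1 and KO 3. Psmb7 was -0.025 with the fixed block and -0.086 within batch 1, and Psmd5 was 0.066 within batch 3. Repeated quantile normalisation gave 0.054 for Psmb8 and 0.020 for Psmb9. Leaving out 1 array at a time, Psmb6 ranged from -0.17 to 0.079, Psmb7 from -2.7e-05 to 0.13, Psmb8 from -0.21 to 0.25, Psmb9 from -0.14 to 0.14, Psmb10 from -0.27 to 0.057, Psme2 from -0.21 to 0.014, Psma7 from -0.11 to 0.075 and Psmc6 from -0.20 to 0.46. The number of probes at an unadjusted p under 0.05 moved from 878 to 1843 with the fixed block, 1666 with array weights and 3126 without KO 2, KO 5 and WT 3. The background correction was not run again, since the values are already processed, and each proteasome gene has 1 probe, so the mean of its probes gave the same values. No paired analysis was possible because the labels give no replicate numbers shared between the genotypes. RMA values carry no background level, so no probe was classed as absent.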
